A study of Sus scrofa with 13 samples.

Results

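The genes described here are the nuclear-encoded subunits of the mitochondrial respiratory chain and ATP synthase in pig biceps femoris muscle. Members were taken by symbol, as every gene whose name starts with NDUFA, NDUFB, NDUFC, NDUFS, NDUFV, SDHA, SDHB, SDHC, SDHD, UQCR, COX4, COX5, COX6, COX7, COX8 or ATP5, or equals CYC1. This gave 61 of the 10283 genes with a single symbol on the array. Of these, 51 are subunits: 31 of complex I, 1 of complex II, 2 of complex III, 6 of complex IV and 11 of complex V. The other 10 are proteins whose symbols share the prefixes, namely 8 assembly factors, NDUFA4L2 and ATP5S, and they were counted apart. CYC1, SDHA, SDHB, SDHC and the muscle isoforms COX6A2 and COX7A1 were not analysed here.

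The study measured 13 German Landrace pigs with 1 array per animal: 4 piglets without functional dystrophin (DMD KO) and 3 wild-type piglets (WT) were aged 2 days, and 3 pigs of each genotype were aged 3 months. The knockout removed exon 52 of DMD, the gene for the protein that links the fibre cytoskeleton to the matrix, with a construct from the porcine artificial chromosome clone CH242-9G11, and the animals came from nuclear transfer of modified kidney cells. DMD KO muscle was collected once the animal had died of itself and WT muscle after euthanasia at matching ages, so genotype, cloning and manner of death cannot be told apart in any genotype difference below. All values are log2 levels as deposited, and a difference of 1 is a doubling. In whole muscle, fewer cells of a type and less RNA per cell cannot be told apart either.

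The respiratory chain sits in the inner mitochondrial membrane. Complex I takes electrons from NADH and complex II from succinate, ubiquinone carries them to complex III, cytochrome c carries them to complex IV, and the proton gradient built on the way drives complex V, the ATP synthase. Most subunits are encoded in the nucleus and imported, while a small core of complexes I, III, IV and V is encoded in mitochondrial DNA. Muscle relies on this system for sustained contraction, and slow oxidative fibres are richer in mitochondria than fast glycolytic fibres.

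The arrays had close medians of all probe sets, from 7.32 to 7.38, but less close bright ends: the 95th percentile was lowest, at 9.21, for the third newborn WT array (WT replicate 3 at 2 days) and reached 9.83 on another array. That newborn WT array also had the lowest mean correlation with the other arrays (0.918, against 0.943 to 0.964). Members mostly lie in the upper part of the scale. The counts of called members are therefore also given without this array and after quantile normalization of the deposited values. Skeletal muscle markers ACTA1, MYH1 and MYH7 were strongly detected in all groups, with group means from 10.37 to 12.38.

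As deposited, the 61 members had their highest median level on an array of DMD KO at 2 days and their lowest on one of DMD KO at 3 months. The array medians were 9.43, 9.27, 9.23 and 9.26 in DMD KO and 8.98, 9.19 and 8.75 in WT at 2 days. At 3 months they were 8.65, 8.87 and 8.80 in DMD KO and 9.30, 9.21 and 9.14 in WT. The genotypes did not overlap at either age, with DMD KO above WT in the newborn and below it in the grown animals. After quantile normalization of the deposited values the 3-month separation was wider, at 8.64 to 8.82 in DMD KO against 9.21 to 9.39 in WT. At 2 days the ranges met, at 9.15 to 9.36 against 9.04 to 9.19. With that scaling the highest array median was in WT at 3 months, not in DMD KO at 2 days, and the lowest was again in DMD KO at 3 months.

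**Figure D1:**
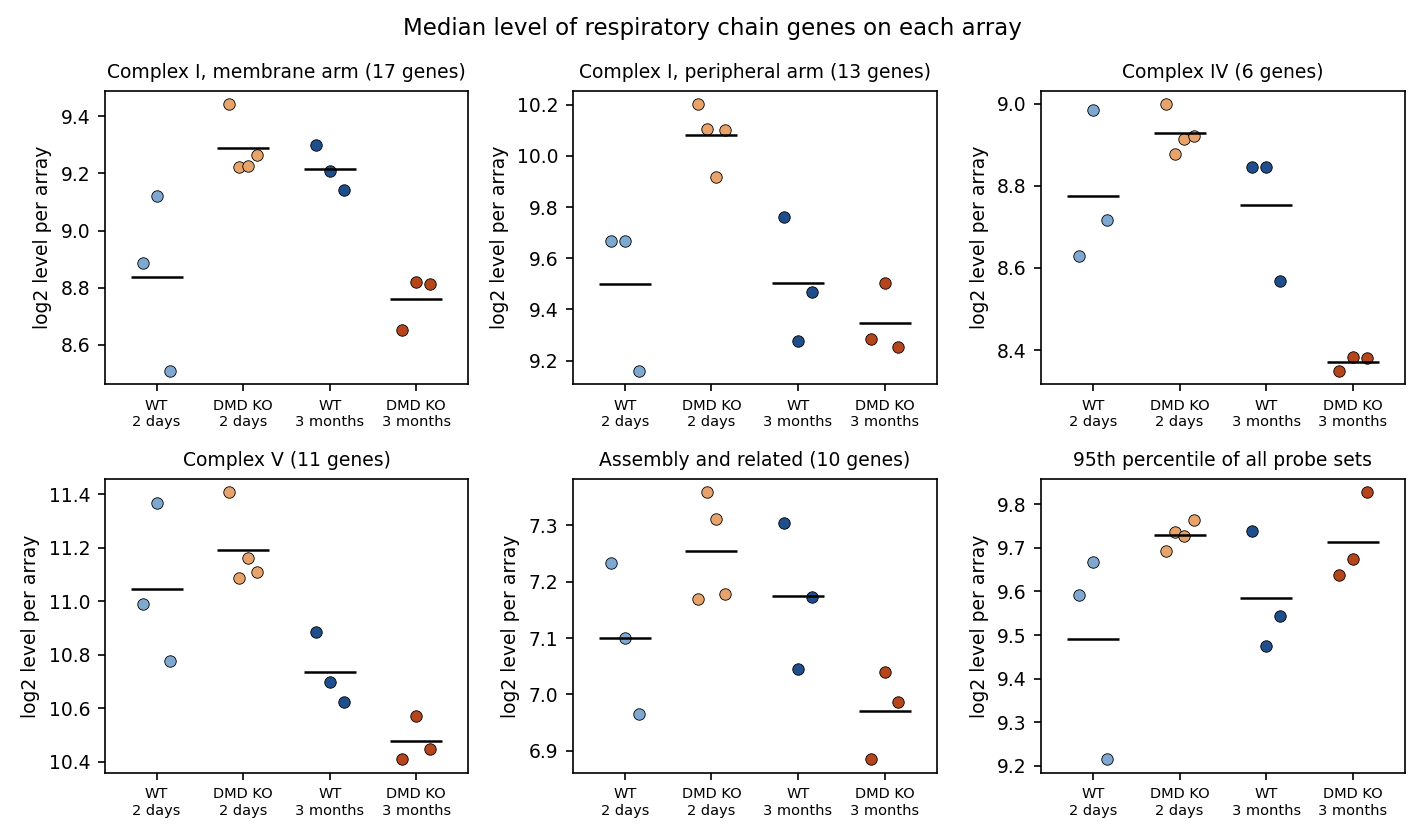
Median log2 level of the genes of each set on each of the 13 arrays (points), with the group mean (line), for both arms of complex I, complexes IV and V, the assembly and related genes, and, last, the 95th percentile of all probe sets. For complex IV the DMD KO arrays at 3 months sit at 8.35 to 8.38, below the other 10 arrays (8.57 to 9.00); the vertical axes do not start at 0.

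At 2 days 8 of the 61 members were higher in DMD KO and 0 were lower by limma, at a Benjamini-Hochberg adjusted p under 0.05 over all 21893 probe sets (called, below). The 8 members are 13.1% of the set, against 7.09% of all probe sets called higher and 2.85% called lower. At an unadjusted p under 0.05, 25 members were higher and 5 lower. The median difference of the members was 0.13 and that of all named genes -0.02.

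In complex I the membrane arm, which pumps protons, held 4 of the 5 calls at 2 days. These were 4 of its 17 genes, against 1 of 13 in the peripheral arm, and the difference between the arms was not tested. NDUFA1, a small subunit anchored near the joint of the arms, had levels of 8.57, 8.38, 8.03 and 8.49 in DMD KO and 7.45, 7.42 and 6.51 in WT. The groups did not overlap, and NDUFA1 was 2.36-fold higher (1.24 ± 0.26, SE, limma adjusted p = 0.0106). NDUFB5, a membrane arm subunit, had 9.81, 9.62, 9.66 and 9.44 in DMD KO against 9.05, 9.31 and 8.16 in WT (0.79 ± 0.21, SE, adjusted p = 0.0339). WT replicate 3 lay far below the other WT arrays in both genes. NDUFB1 (0.77, adjusted p = 0.0314) and NDUFB8 (0.48, adjusted p = 0.0149), also of the membrane arm, and NDUFA9 (0.53, adjusted p = 0.026), which sits in the peripheral arm near the ubiquinone site, were the other calls in complex I.

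Complexes II and III had no call at 2 days. SDHD, the membrane anchor of succinate dehydrogenase, differed by -0.02 (95% interval -0.46 to 0.42). UQCR10, a small subunit of complex III, had the largest difference outside complex I (1.11 ± 0.45, SE, adjusted p = 0.134). Its levels were 8.88, 8.75, 8.70 and 8.89 in DMD KO and 7.12, 8.81 and 7.16 in WT, so WT replicate 2 lay with the knockouts. UQCRB, which binds near the ubiquinone site of complex III, differed by 0.28 (adjusted p = 0.101).

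In complex IV COX5B, a subunit on the matrix side of cytochrome c oxidase, was higher in DMD KO at 2 days. Its levels were 9.43, 9.32, 9.35 and 9.56 against 8.83, 8.97 and 8.89 in WT, a 1.43-fold difference (0.52 ± 0.10, SE, adjusted p = 0.00642). Isoform genes had estimates below 0 that did not pass: COX8H, the heart and muscle form of subunit VIII, differed by -0.30 (adjusted p = 0.097) and COX6A1, the general form of subunit VIa, by -0.31 (adjusted p = 0.111). COX8H had 8.76, 8.71, 8.76 and 8.87 in DMD KO and 9.12, 9.07 and 9.04 in WT, ranges that did not overlap.

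In complex V the calls were ATP5H, subunit d of the peripheral stalk that holds the F1 head in place, and ATP5E, the epsilon subunit of the central stalk. ATP5H had 11.59, 11.39, 11.32 and 11.55 in DMD KO and 10.70, 10.97 and 10.39 in WT. It was 1.71-fold higher with no overlap (0.77 ± 0.12, SE, adjusted p = 0.00246). ATP5E had 9.94, 9.96, 10.04 and 10.08 against 9.57, 9.58 and 9.41 (0.49 ± 0.09, SE, adjusted p = 0.00493). The F1 head subunits ATP5A1 (0.11) and ATP5B (-0.15) and the c-ring genes ATP5G1 (-0.28) and ATP5G3 (-0.30) did not pass. For ATP5J2, subunit f, the brighter probe set did not pass (0.365, adjusted p = 0.101) and the dimmer did (0.464, adjusted p = 0.0443).

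The newborn difference rests in part on which arrays and which scaling are used. Without WT replicate 3 at 2 days 4 members were higher, ATP5E, ATP5H, COX5B and NDUFA1, and NDUFC1 was lower. NDUFA1 then differed by 0.927, and the differences of NDUFB5 (0.446, adjusted p = 0.0541) and NDUFB1 (0.491, adjusted p = 0.0965) no longer passed. These 4 were called whichever single array was left out. The higher count was 5 without DMD KO replicate 1, 2 or 4 at 2 days and 17 without WT replicate 2. After quantile normalization 3 members were higher (ATP5H, NDUFA1 and NDUFB1) and 5 lower (ATP5G1, ATP5G3, COX8H, NDUFAB1 and NDUFC1). The median difference was then 0.05, and the split of the calls at 2 days depends on the scaling.

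**Figure D2:**
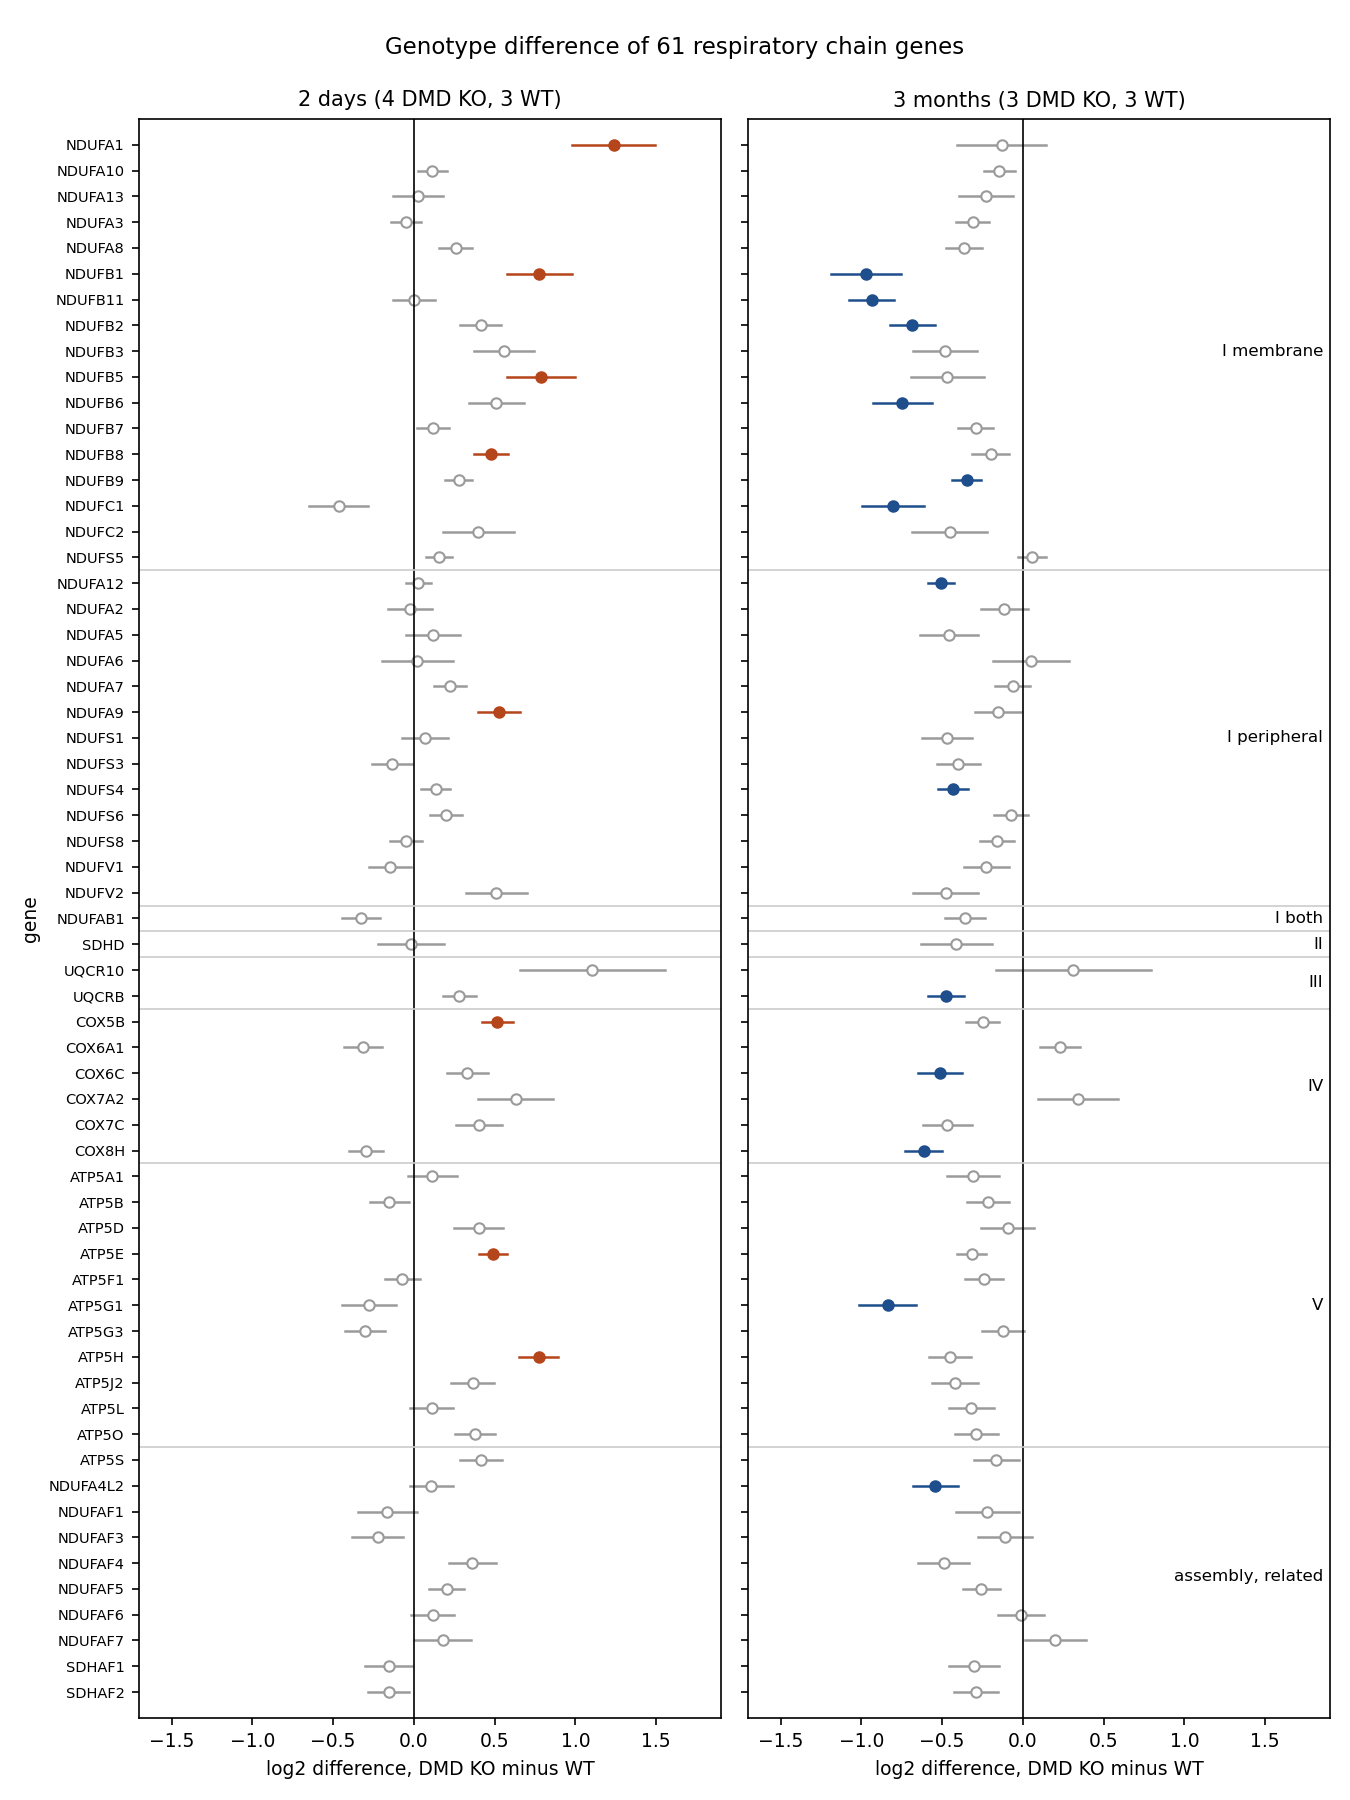
Log2 difference DMD KO minus WT of each of the 61 genes (point) with its moderated SE (bar) at 2 days and at 3 months, by complex; filled points passed at an adjusted p under 0.05, red higher and blue lower in DMD KO. At 2 days 8 points are filled, all to the right of 0, and at 3 months 13, all to the left.

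At 3 months the calls on the values as deposited went the other way. By limma 13 of the 61 members were lower in DMD KO and 0 were higher. At an unadjusted p under 0.05, 31 were lower and 0 higher. The 13 are 21.3% of the set, against 1.36% of all probe sets called lower and 4.62% called higher. The estimate was below 0 for 55 members, with a median of -0.31 against -0.03 over all named genes. In 32 members the 3 DMD KO arrays all lay below the 3 WT arrays, which 10.1% of all probe sets did, and in 0 they all lay above.

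Complex I held 8 of the 13 calls, for 6 of 17 genes of the membrane arm and 2 of 13 of the peripheral arm; the difference between the arms was not tested. NDUFB11, a membrane arm subunit, had levels of 8.77, 9.26 and 8.81 in DMD KO and 9.91, 9.82 and 9.93 in WT. It was 1.91-fold lower (-0.94 ± 0.14, SE, adjusted p = 0.00148). NDUFB1 had 9.23, 8.97 and 9.30 against 10.15, 9.95 and 10.32, a 1.96-fold difference (-0.97 ± 0.22, SE, adjusted p = 0.0181), and was the single member called higher at 2 days and lower at 3 months. NDUFC1 (-0.80), NDUFB6 (-0.75), NDUFB2 (-0.68) and NDUFB9 (-0.35), all of the membrane arm, were lower as well, with adjusted p from 0.0106 to 0.0375.

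In the peripheral arm NDUFA12, which takes its place late in assembly, was the most uniform member in the knockouts, at 11.09 on each of the 3 DMD KO arrays against 11.61, 11.52 and 11.67 in WT. The DMD KO arrays lay below every other array of the series for this gene, and the difference was -0.51 ± 0.08 (SE, adjusted p = 0.0024). NDUFS4, an accessory subunit needed for a stable complex, differed by -0.43 (adjusted p = 0.0164). The measured core subunits that carry the flavin or iron-sulphur clusters did not pass. NDUFS1 differed by -0.47 (adjusted p = 0.108), NDUFV2 by -0.48 (adjusted p = 0.221), NDUFV1 by -0.23 (adjusted p = 0.419) and NDUFS8 by -0.16 (adjusted p = 0.441). For NDUFS1 and NDUFV2 the groups did not overlap, and both were called lower after quantile normalization. Neither held for NDUFV1 and NDUFS8.

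UQCRB of complex III had 10.82, 10.93 and 10.97 in DMD KO at 3 months and 11.54, 11.38 and 11.24 in WT. It was 1.39-fold lower, with no overlap (-0.48 ± 0.11, SE, adjusted p = 0.022). UQCR10 could not be judged, at 7.75, 8.21 and 8.06 in DMD KO and 8.91, 7.13 and 7.04 in WT. SDHD differed by -0.41 (95% interval -0.89 to 0.06), and its dimmer probe set by -0.15. With age in DMD KO its probe sets differed in sign (-0.14 and 0.09), as did those of NDUFA6 at 2 days (0.02 and -0.02).

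COX8H was lower in DMD KO at 3 months, at 8.66, 8.87 and 8.36 against 9.22, 9.21 and 9.29 in WT (-0.61 ± 0.11, SE, adjusted p = 0.00666). COX6C, a small subunit of complex IV, was lower by a log2 difference of -0.51 (adjusted p = 0.0456). COX7A2 (0.34, adjusted p = 0.478) and COX6A1 (0.23, adjusted p = 0.353), the general forms of subunits that also have muscle forms, were 2 of the 6 members with an estimate above 0. COX5B, called at 2 days, differed by -0.25 (adjusted p = 0.21).

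All 11 estimates in complex V were below 0 at 3 months, and 1 passed. ATP5G1, a gene for subunit c of the rotating ring, had 8.55, 9.07 and 8.80 in DMD KO and 9.86, 9.78 and 9.29 in WT, a 1.78-fold difference (-0.84 ± 0.18, SE, adjusted p = 0.0142). The other measured c-ring gene, ATP5G3, differed by -0.12 (95% interval -0.41 to 0.16). ATP5H (-0.45, adjusted p = 0.0647) and ATP5E (-0.32, adjusted p = 0.0662), both called higher in the newborn knockouts, had groups that did not overlap. Among the related genes NDUFA4L2, a relative of the complex IV subunit NDUFA4, was lower (-0.54, adjusted p = 0.0415), and none of the 8 assembly factors passed.

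**Figure D3:**
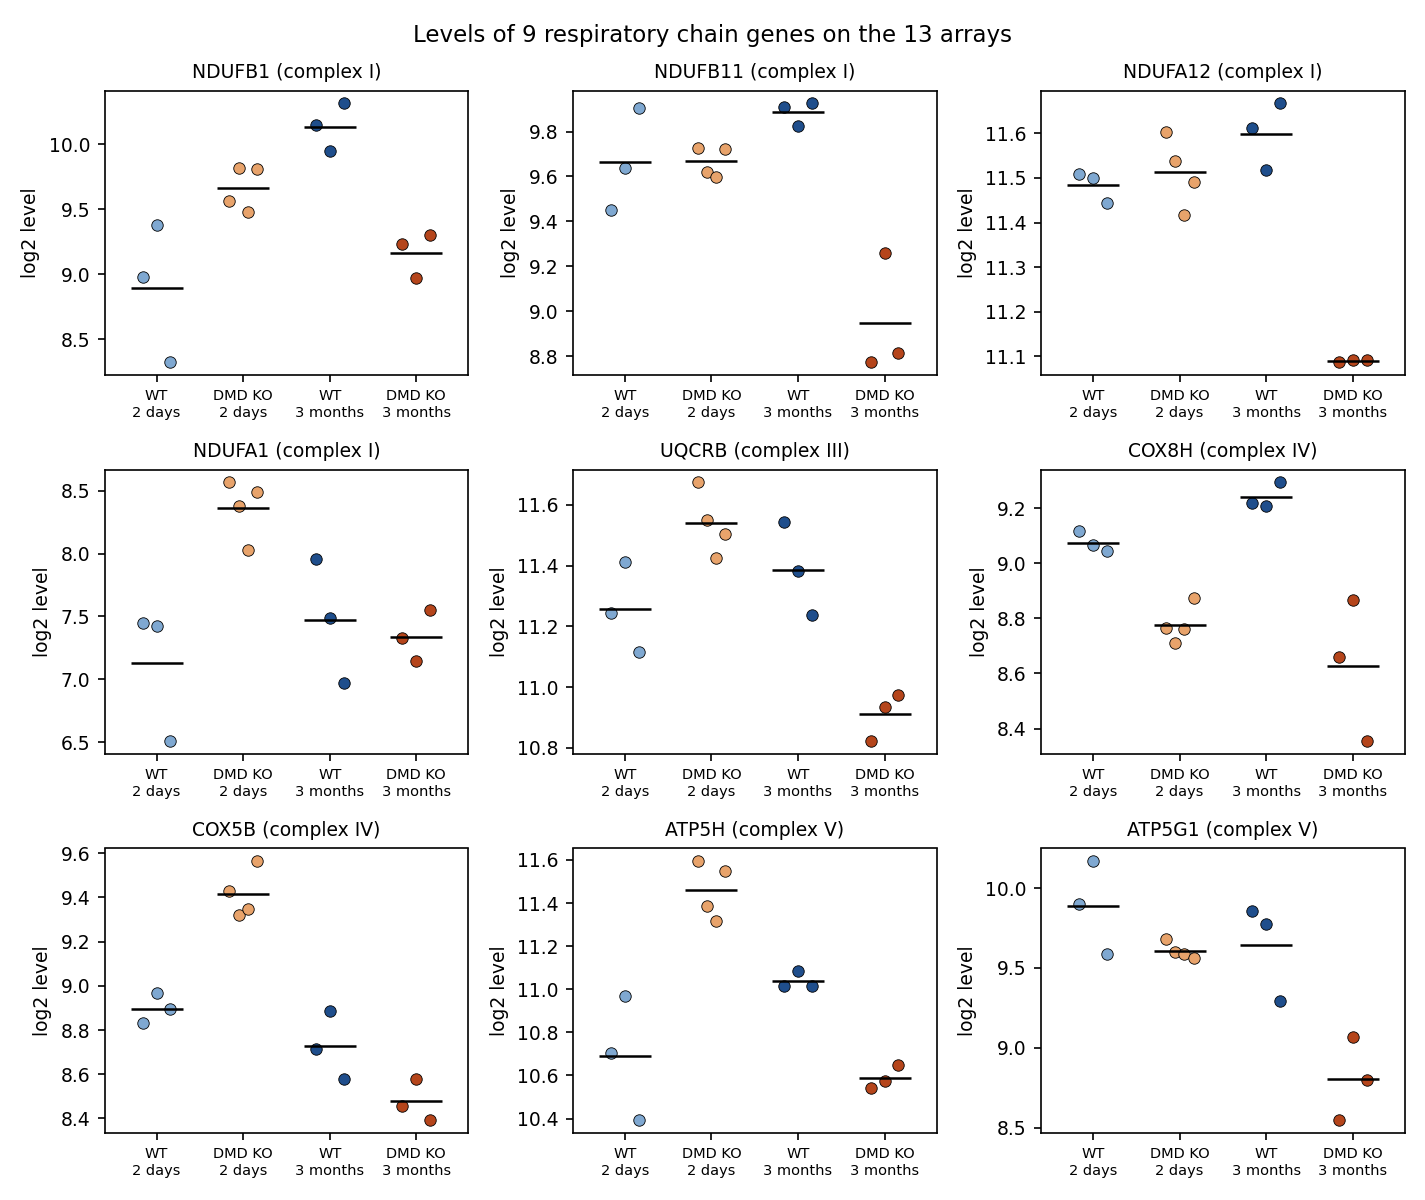
Log2 level of 9 named genes on each of the 13 arrays (points) with group means (lines); the vertical axes do not start at 0. For NDUFA12, NDUFB11, UQCRB and ATP5G1 the 3 DMD KO arrays at 3 months lie below all other arrays, and for NDUFA1, COX5B and ATP5H the 4 DMD KO arrays at 2 days lie above all others.

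At 3 months 0 members were called higher under any alternative run, and the number called lower moved with the arrays. Leaving out DMD KO replicate 1, 2 or 3 at 3 months left 7, 6 or 5 lower, leaving out WT replicate 1, 2 or 3 of that age left 8, 7 or 7, and leaving out the dim newborn WT array left 21. COX8H, NDUFA12, NDUFB11 and NDUFB2 were called whichever single array was left out. Quantile normalization gave 21 lower and 0 higher, and 12 of the 13 were among the 21.

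Markers of other cells differed between the same arrays, at shares of all probe sets called of 4.62% higher and 1.36% lower at 3 months and 7.09% and 2.85% at 2 days. Of 6 measured macrophage markers 4 were higher in DMD KO at 3 months, and the log2 of their summed levels ran from 10.84 to 11.47 in DMD KO and from 9.96 to 10.23 in WT. Of 5 fibroblast markers 3 were higher, with sums of 14.07 to 14.24 against 13.29 to 13.89. Of 8 fast-fibre markers 4 were lower (14.31 to 14.56 against 14.93 to 15.10), and 1 of 6 slow-fibre markers was higher (14.35 to 14.59 against 13.57 to 14.73). At 2 days 3 slow-fibre markers were higher (14.60 to 14.80 against 13.74 to 14.10), 4 fast-fibre markers were lower (13.77 to 14.16 against 14.26 to 14.62) and 4 fibroblast markers were lower (12.49 to 12.86 against 14.17 to 14.25). No marker is at 0 on this scale. The part of these markers in the respiratory chain differences was not tested.

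Between 2 days and 3 months 32 of the 61 members fell in DMD KO animals and 0 rose by limma, with 42 lower and 0 higher at an unadjusted p under 0.05. They are 52.5% of the set, against 3.57% of all probe sets called lower and 4.47% called higher. The median difference was -0.50, and in 46 members the 3 arrays at 3 months all lay below the 4 arrays at 2 days (10.7% of all probe sets).

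All 11 measured subunits of complex V fell in DMD KO, by log2 differences from -0.48 (ATP5F1) to -0.91 (ATP5J2). ATP5J2, in the membrane part, went from 11.49, 11.42, 11.36 and 11.46 to 10.41, 10.63 and 10.53 (-0.91 ± 0.13, SE, adjusted p = 0.000994), and its dimmer probe set gave -0.845. ATP5H (-0.87, adjusted p = 0.000681), ATP5E (-0.84, adjusted p = 7.95e-05) and ATP5L, subunit g of the membrane part (-0.82, adjusted p = 0.00188), fell as well. ATP5A1, the alpha subunit of the F1 head, fell by 0.82 on the log2 scale (adjusted p = 0.00455). ATP5B, the catalytic beta subunit, fell by 0.56 (adjusted p = 0.0111). In WT 10 of the 11 estimates in complex V were below 0 as well and 1 was above. Their median was -0.24 in WT, with 1 called, and -0.80 in DMD KO. ATP5A1 differed by -0.39 and ATP5B by -0.50 with age in WT, neither called. The age change differed between genotypes for 3 of the 11 by limma.

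In complex IV 3 of 6 genes fell in DMD KO: COX5B (-0.94, adjusted p = 7.80e-05), COX7A2 (-0.92, adjusted p = 0.0267) and COX7C (-0.72, adjusted p = 0.00674). For COX7A2 the estimate with age in WT was -0.63 (limma adjusted p = 0.256). Its difference in age change was -0.29 (limma adjusted p = 0.806). COX6A1 was the single member with an estimate above 0 in DMD KO (0.25, adjusted p = 0.289). UQCRB fell by 0.63 (adjusted p = 0.00198). In complex I 16 of 31 fell, 10 of 17 in the membrane arm, 5 of 13 in the peripheral arm, and NDUFAB1, the mitochondrial acyl carrier protein that is part of both arms. Within complex I NDUFA1 fell the most (-1.03 ± 0.26, SE, adjusted p = 0.0259), then NDUFC2 (-0.82, adjusted p = 0.037), and NDUFB8 had the smallest adjusted p (-0.69, adjusted p = 0.00133). Of the assembly and related genes NDUFAF4, an early assembly factor of complex I, fell (-0.60, adjusted p = 0.024) and 9 did not pass. The count lay between 22 and 36 over all leave-one-out fits, was 36 without WT replicate 3 at 2 days and was 32 after quantile normalization.

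Markers of other cells changed over the same interval in DMD KO. Of the measured markers 4 of 5 for fibroblasts, 4 of 6 for macrophages and 4 of 8 for fast fibres rose. For endothelium 2 of 4 fell, and 0 of 6 for slow fibres passed. The shares of all probe sets were 4.47% called higher and 3.57% lower. In WT 6 of 8 for fast fibres rose, 1 of 5 for fibroblasts fell and 0 of 6 for macrophages passed. In DMD KO the log2 of the summed fibroblast markers was 12.49 to 12.86 at 2 days and 14.07 to 14.24 at 3 months. In WT it was 14.17 to 14.25 and then 13.29 to 13.89. For the macrophage markers the sums in DMD KO were 9.96 to 10.11 at 2 days and 10.84 to 11.47 at 3 months. In WT they were 9.91 to 10.24 and then 9.96 to 10.23. For the difference in age change between genotypes 3.06% of all probe sets were called above 0 and 1.99% below. Of the markers 4 of 5 for fibroblasts and 2 of 6 for macrophages were called above 0, and 2 of 8 for fast fibres below. For slow fibres 1 of 6 was above 0 and 1 below, with a median of -0.89. The part of these markers in the changes of the members was not tested.

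In WT animals the same interval gave 1 member higher and 2 lower by limma, with 10 higher and 11 lower at an unadjusted p under 0.05. These are 1.64% and 3.28% of the set, against 1.71% and 1.18% of all probe sets called higher and lower. The median difference was 0.01, and the arrays of the ages did not overlap for 11 members with higher levels at 3 months (18.0%, against 7.02% of all probe sets) and 5 with lower levels (8.20%, against 6.32%). NDUFB1 rose 2.37-fold, from 8.98, 9.37 and 8.32 to 10.15, 9.95 and 10.32 (1.24 ± 0.22, SE, adjusted p = 0.00842). ATP5G3 fell from 11.33, 11.64 and 11.36 to 10.76, 10.70 and 10.44 (-0.82 ± 0.13, SE, adjusted p = 0.00558), and NDUFAB1 fell by 0.52 (adjusted p = 0.0478). ATP5G3 and NDUFAB1 also fell in DMD KO. Without WT replicate 2 at 2 days 4 members were higher, and without WT replicate 3 at 2 days 4 were lower. NDUFB1 and ATP5G3 were called in WT whichever single array was left out, and NDUFAB1 was not. Quantile normalization gave 1 higher (NDUFB1) and 3 lower (ATP5B, ATP5G3 and ATP5L), and NDUFAB1 was then called with age in neither genotype.

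**Figure D4:**
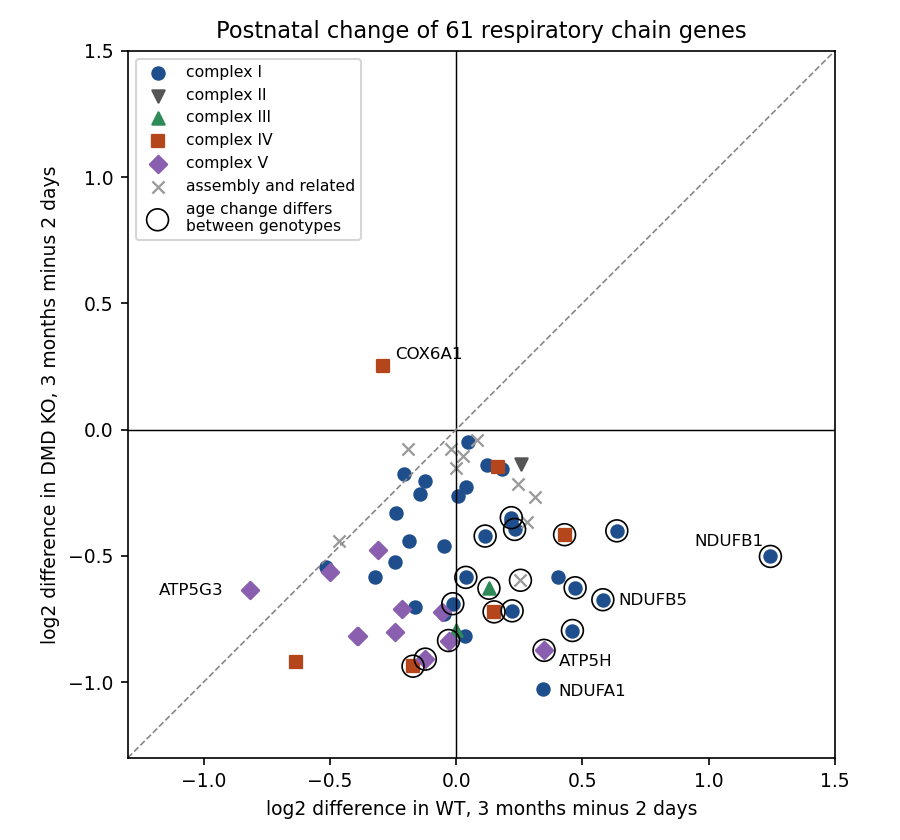
Log2 difference 3 months minus 2 days of each of the 61 genes in WT (horizontal) and in DMD KO (vertical), by complex; rings mark the 19 genes whose change with age differed between genotypes, and the dashed line is equality. In DMD KO 60 of 61 points lie below 0, while in WT they spread to both sides (31 above, 30 below).

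The genotype and age comparisons share arrays and are not independent of each other. The difference between the age changes, which equals the 3-month genotype difference less the newborn one, was tested in the same fit. It was below 0 for 19 members and above 0 for 0 by limma (33 and 1 at an unadjusted p under 0.05). The 19 are 31.1% of the set, against 1.99% of all probe sets called below 0 and 3.06% above, and the median was -0.50. The membrane arm of complex I held 9 of its 17 genes, with NDUFB1 at -1.75 ± 0.29 (SE, adjusted p = 0.00495), NDUFB6 at -1.26, NDUFB5 at -1.25, NDUFB2 at -1.10, NDUFB3 at -1.04 and NDUFB11 at -0.94. The peripheral arm held NDUFA12 (-0.54) and NDUFS4 (-0.57). Among the other complexes were ATP5H (-1.22 ± 0.18, SE, adjusted p = 0.00171), ATP5E, ATP5J2, COX5B, COX6C, COX7C and UQCRB.

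In ATP5H the genotype difference was 0.77 at 2 days and -0.45 at 3 months, the latter not called (limma adjusted p = 0.0647). Its means in DMD KO and WT were 11.46 ± 0.13 (SD, n = 4) and 10.69 ± 0.29 (SD, n = 3) at 2 days. At 3 months they were 10.59 ± 0.06 (SD, n = 3) and 11.04 ± 0.04 (SD, n = 3). Others of the 19 had little newborn difference, such as NDUFB11 (0.002), NDUFA12 (0.03) and NDUFS4 (0.13) at 2 days. The count of 19 was 11 without DMD KO replicate 1 at 2 days or DMD KO replicate 1 at 3 months, and 12 without DMD KO replicate 2 at either age or WT replicate 1 at 3 months. It was 18 without WT replicate 3 at 2 days. After quantile normalization it was 17, of which 15 were among the 19, and NDUFA12, NDUFA8, NDUFB11 and NDUFB8 no longer passed. Over the genotype differences themselves, 38 members had an estimate above 0 at 2 days and below 0 at 3 months. For 17 it was below 0 at both ages, for 5 above 0 at both, and for 1 below 0 and then above. Across the whole series the 3 DMD KO arrays at 3 months lay below all other 10 arrays for 15 members (24.6%, against 1.17% of all probe sets), and the 4 DMD KO arrays at 2 days lay above all others for 7 (11.5%, against 4.45%). The 3 WT arrays at 3 months lay above all others for COX8H and NDUFB1 (3.28%, against 1.84%).

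Members differed in how much they varied within a group. The median SD over members was 0.11 in DMD KO at 2 days, 0.23 in WT at 2 days, 0.13 in DMD KO at 3 months and 0.17 in WT at 3 months. UQCR10 had the largest spread in both WT groups (SD 0.97 and 1.05, n = 3 each), with WT arrays either at 8.81 and 8.91 or between 7.04 and 7.16. No DMD KO array lay between 7.04 and 7.16.

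Other genes of the system were taken from lists; their counts can be read against the shares of all probe sets called higher and lower, which were 7.09% and 2.85% at 2 days, 4.62% and 1.36% at 3 months, and 4.47% and 3.57% with age in DMD KO. None of the 8 measured mitochondrially encoded subunits, among them COX1 of complex IV and ND1 of complex I, was called in any comparison by limma, with 0 at an unadjusted p under 0.05 at 2 days, 1 lower at 3 months, 3 lower with age in WT and 1 lower with age in DMD KO. COX1 differed by -0.07 at 2 days (95% interval -0.22 to 0.09) and by 0.02 at 3 months (95% interval -0.15 to 0.18), at group means from 13.33 to 13.48. The highest value in the table is 13.79, and saturation was not analysed here. Of 13 genes of the citric acid cycle and of the pyruvate dehydrogenase complex that feeds it 4 were higher in DMD KO at 2 days, 2 lower at 3 months (SUCLG1 of the cycle, -0.48, and PDHX of pyruvate dehydrogenase, -0.65), and 8 fell with age in DMD KO, led by IDH3B (-1.10, adjusted p = 0.000644), a subunit of isocitrate dehydrogenase.

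Of 11 measured genes of electron carriers and their synthesis, COQ8A and COQ10A, which serve ubiquinone synthesis and handling, were higher in DMD KO at 2 days (0.64 and 0.63) and lower at 3 months (-0.40 and -0.81), and 6 genes fell with age in DMD KO. COQ8A had 8.90, 8.65, 8.60 and 8.75 in DMD KO and 8.11, 8.19 and 7.96 in WT at 2 days, and at 3 months all 3 DMD KO arrays (7.57 to 7.71) lay below the WT arrays (7.985 to 8.16). In the list of nucleotide exchange and uncoupling, CKMT2, the mitochondrial creatine kinase of muscle, was lower in DMD KO at 3 months (-1.29 ± 0.20, SE, adjusted p = 0.00184), as was SLC25A4, the muscle ADP/ATP carrier (-0.41, adjusted p = 0.0231). CKMT2 had 8.26, 8.54 and 7.91 in DMD KO and 9.64, 9.62 and 9.32 in WT, with no overlap.

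Of 14 assembly factors outside the symbol prefixes 2 were higher in DMD KO at 2 days, COX17, a copper chaperone of complex IV (0.68, adjusted p = 0.00828), and PET100 (0.39), and 0 passed at 3 months (3 lower and 0 higher at an unadjusted p under 0.05, limma). Of 11 regulators of mitochondrial genes 3 were higher at 2 days, SIRT1 (0.95), PPARA (0.59) and TFB1M (0.44), and 0 passed at 3 months (1 higher and 1 lower at an unadjusted p under 0.05). TFAM, which packages and transcribes mitochondrial DNA, differed by 0.62 (adjusted p = 0.072) and -0.24 (adjusted p = 0.565). PPARGC1A was not analysed here, and the probe set for CYCS carries several symbols. The calls of genes in these lists were not checked without WT replicate 3 at 2 days or after quantile normalization. For SIRT1 that array was at 7.18, against 7.85 and 8.08 on the other newborn WT arrays. For PPARA and TFB1M it was not the lowest.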

How the data were processed

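Total RNA of biceps femoris from 13 pigs, described as biological replicates, was measured on 1 Affymetrix array per animal. The submitters' processing notes name Affymetrix Power Tools as the tool behind the table of 21893 probe sets, without a version, and its summary and normalization methods were not known here. The deposited values lie between 2.81 and 13.79, from which range they were taken to be log2 levels. Array number limits the precision.

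Symbols came from the platform annotation: 11028 probe sets carry 1 symbol, 418 several and 10447 none, and 10752 were matched by gene number (5 symbols updated). Each gene was represented by its probe set with the highest mean over the 13 arrays; 6 members had several. All probe sets entered a limma 3.58.1 model (R 4.3.3) of 4 group means and 9 residual degrees of freedom, with 5 contrasts, moderated standard errors and Benjamini-Hochberg adjustment per contrast over 21893 probe sets. It was tested on simulated data. Alternatives were quantile normalization of the deposited values, median centring, eBayes with trend and robust settings, array weights and a filter on dim probe sets. Further ones were the mean of a gene's probe sets, only the groups compared, the replicate number as a block, and leaving out each array. A covariate for the 95th percentile was added after seeing the data.

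Genes named with values are the called members with the largest differences (up to 8 in each direction per contrast), the largest difference per complex, tissue isoform sets, up to 3 called genes of each other list, PPARGC1A, TFAM, CYCS and the tissue markers. Other genes are named by role, or as those just short of the threshold, and were chosen after their values were seen. The members and all lists were chosen with earlier results of these data known.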

Additional observations from a re-analysis of the deposited data

Results flagged for a closer look

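In 19 members the change with age differed between DMD KO and WT by limma at an adjusted p under 0.05 over all probe sets; the values are the 3-month genotype difference less the newborn one, on the log2 scale. In the membrane arm of complex I they were -1.75 for NDUFB1, -1.26 for NDUFB6, -1.25 for NDUFB5, -1.10 for NDUFB2, -1.04 for NDUFB3, -0.94 for NDUFB11, -0.68 for NDUFB8, -0.63 for NDUFB9 and -0.62 for NDUFA8. In its peripheral arm they were -0.57 for NDUFS4 and -0.54 for NDUFA12, and for the assembly factor NDUFAF4 the value was -0.85. In complex III the value was -0.76 for UQCRB. In complex IV the values were -0.87 for COX7C, -0.85 for COX6C and -0.77 for COX5B. In complex V they were -1.22 for ATP5H, -0.81 for ATP5E and -0.79 for ATP5J2.

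A single array lay far from the others of its group in 2 members among the 61 groups of 4 arrays, DMD KO at 2 days; chance gives about 1 such group in 20. NDUFB3 was highest on DMD KO replicate 1, at 9.65 against 9.22 on the next array. SDHAF2, an assembly factor of complex II, was lowest on DMD KO replicate 3, at 6.51 against 6.82 on the next array.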

How the results depend on the processing

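No member called in the 13-array model changed sign under any alternative run, but the counts of called members moved. At 2 days quantile normalization gave 3 higher and 5 lower. With the 95th percentile as a covariate, chosen after seeing the data, 4 were higher and 1 lower at 2 days, 24 lower at 3 months, and 2 higher and 7 lower with age in WT. Array weights, whose estimation stopped before it converged, gave 23 higher and 4 lower at 2 days, 23 lower at 3 months, and 8 higher and 11 lower with age in WT. Quantile normalization gave 21 lower at 3 months. With trend and robust settings 1 was lower with age in WT and 11 had a difference in age change; median centring gave 1 lower with age in WT. With only the groups compared, 7 were lower at 3 months and 0 higher and 0 lower with age in WT. Leaving out each array gave 4 to 17 higher and 0 to 1 lower at 2 days, 5 to 21 lower at 3 months, 1 to 4 higher and 1 to 4 lower with age in WT, 22 to 36 lower with age in DMD KO, and 11 to 20 for the difference in age change. The cause of these shifts was not tested.

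With the replicate number as a block, 4 were higher at 2 days, 5 lower at 3 months, 1 lower with age in WT, 24 lower with age in DMD KO and 7 had a difference in age change. The deviations of same-numbered arrays from their group means had correlations from -0.50 to 0.33. Arrays that correlated best with their own number were 0 of 6 at 2 days and 2 of 6 at 3 months. They were 2 of 6 with age in WT and 3 of 6 with age in DMD KO. With so few arrays this check cannot exclude a pairing, and the main model has no block.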

Other observations

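Outside the respiratory chain itself, the difference between genotypes in the age change was below 0 at a limma adjusted p under 0.05 for 3 of 13 genes of the citric acid cycle and pyruvate dehydrogenase, 2 of 11 of electron carriers and their synthesis, and 3 of 8 of uncoupling and nucleotide exchange; 1.99% of all probe sets were called below 0. The genes were IDH3B (-1.26), DLD (-0.78) and SUCLG1 (-0.75), then COQ10A (-1.44) and COQ8A (-1.04), then CKMT2 (-1.78), SLC25A4 (-0.64) and the channel gene VDAC3. COX17, the copper chaperone, rose with age in WT (0.94, adjusted p = 0.0043), and its difference in age change was -1.18 (adjusted p = 0.00443). LRPPRC, which stabilises mitochondrial messenger RNA, fell with age in DMD KO (-0.97, adjusted p = 0.0353). In WT its mean was 10.05 at 2 days and 9.37 at 3 months, which was not called. Its difference in age change was not called either.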
